A study of Homo sapiens with 34 samples.

Results

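The genes described here are 45 genes of mitosis other than the kinesin family of motors, chosen by symbol, with every array probe annotated to those symbols taken in. The 45 genes carry 70 probes. All 45 were among the 15297 genes tested of 20046 on the array. They cover the cyclins and kinases of mitotic entry, the chromosomal passenger complex, the spindle checkpoint, the centromere and kinetochore, chromosome structure, anaphase, the spindle microtubules, cytokinesis and 1 transcription factor. CENPE, a motor of the kinetochore, belongs to the kinesin family by structure and is kept among the 45. The questions were on which day these genes fell, how deeply, and whether they returned, in each of 3 hepatocellular carcinoma lines.

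Total RNA of the established lines HepG2, SNU398 and SNU475 was labelled with biotin and measured on 34 Illumina arrays, 2 for each of 17 combinations of a line and a day. Treated cells of every line had received SGI-110 at 100 nM on 3 consecutive days, 72 h of exposure in all, and were then harvested later. SGI-110, or guadecitabine, joins decitabine to deoxyguanosine and inhibits DNA methyltransferases once the decitabine is built into newly made DNA. Each line had untreated arrays from before treatment and arrays of days 3, 10, 17 and 24, and SNU475 also of days 31 and 56. No line had untreated arrays of a later day, so time in culture and treatment cannot be told apart.

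At the start of mitosis CDK1 bound to a B-type cyclin is activated, chromosomes condense, and kinetochores assemble on the centromeres. The spindle checkpoint holds the cell until every kinetochore is attached, after which CDC20 directs the anaphase-promoting complex to destroy cyclin B and securin, and the cytokinesis proteins divide the cell. In dividing cells these genes are transcribed together late in the cell cycle, through the MuvB complexes and FOXM1, and they are repressed together when cells leave the cycle. Proliferating hepatocellular carcinoma lines therefore express them, while resting liver cells hardly do.

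Values are normalized log2 intensities, and a change is the difference of 2 group means on that scale with the standard error of the fit. A gene was called where the p-value, adjusted over all 15297 genes of a comparison, was under 0.05 in limma. Array medians as deposited fell into 3 sets with no overlap. HepG2 and untreated SNU398 made up 1 set (12 arrays, medians from 182.91 to 183), treated SNU398 with SNU475 untreated and at day 3 another (12 arrays, 172.65 to 172.73), and SNU475 from day 10 on the last (10 arrays, 156.27 to 156.33). Every HepG2 comparison, the comparisons among treated days of SNU398, and those of SNU475 from day 10 on lay within a set. In SNU398 against untreated cells, and in SNU475 from day 10 against untreated or day 3 cells, the set and the day cannot be told apart. Scaling the arrays to 1 median moved the share of higher genes among all called against untreated cells from between 50.8 and 56.4% to between 68.4 and 78.7% in SNU398, and from between 46 and 59.1% to between 27.3 and 38.8% in SNU475 from day 10 on. Of 8 hepatocyte markers tested, 8 were above background in untreated HepG2, 4 in SNU475 and 3 in SNU398, where AFP was not. The endothelial markers PECAM1 and VWF were not above background in untreated cells of any line. The labels do not say that the 2 arrays of a group came from separate cultures, so the p-values rest on the spread of those arrays alone, and that spread may be technical.

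The mitosis genes fell at day 10 in all 3 lines and later rose again, on different days and to different extents. In HepG2 43 of 45 were called lower at day 10, with a median change of -2.15, a 4.43-fold lower level, while the median over all genes was 0.01. In SNU398 43 of 45 were lower at day 10, with a median of -1.32 or 2.49-fold, against 0.03 over all genes. In SNU475 41 of 45 were lower, with a median of -0.94 or 1.92-fold, against 0.01. Over all genes, the share called lower at day 10 was 14.7% in HepG2, 15.4% in SNU398 and 8.99% in SNU475. The array reads bulk RNA, so fewer dividing cells and less RNA per cell cannot be told apart.

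**Figure D1:**
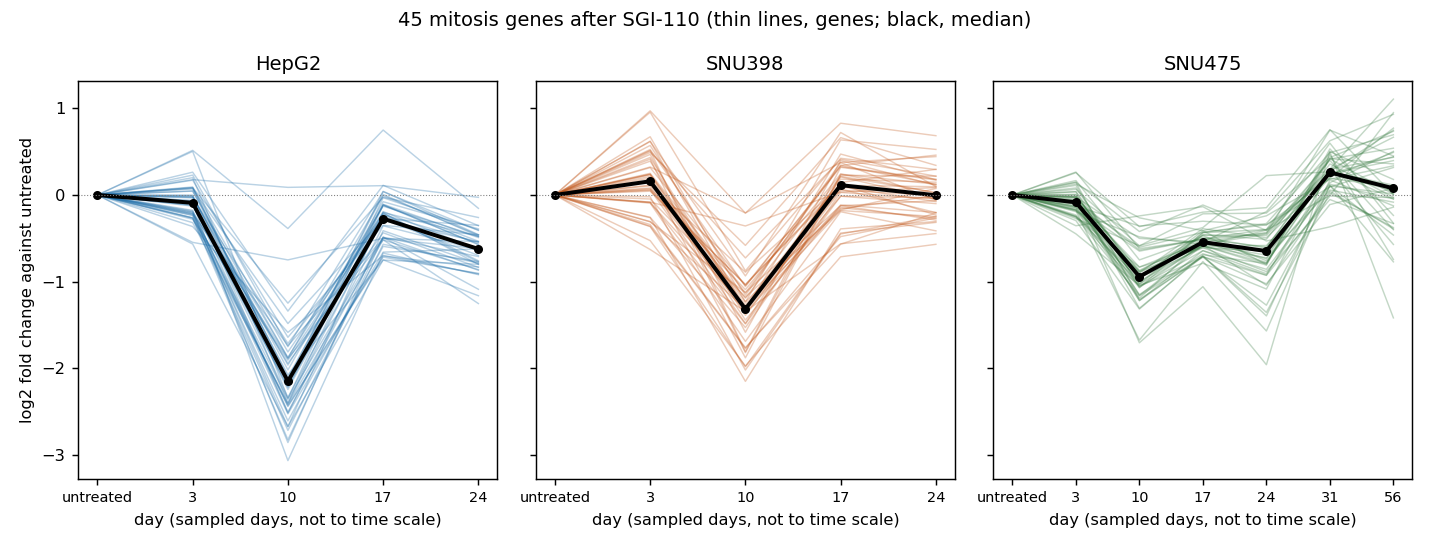
Log2 fold change of each of the 45 mitosis genes against untreated cells of its line (thin lines) and their median (black), by sampled day, in HepG2, SNU398 and SNU475; days are evenly spaced on the axis. The medians reach -2.15, -1.32 and -0.94 at day 10, and by day 24 stand at -0.62, 0.00 and -0.65, with SNU475 above 0 at day 31.

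Since the members moved together, the DNA just upstream of their start sites is shown for some of the genes that carry the results. RefSeq promoter windows of build GRCh38.p14, from 250 bases before to 50 bases after the start, were at hand for 36 of the 45 genes. The windows were searched on both strands for TTTGAA, the common form of the cell cycle genes homology region bound by MuvB, for its variant TTCGAA, and for CCAAT, the box bound by the factor NF-Y. TTTGAA stood in 27 of the 36 members, 75%, against 18.2% of 27305 genes with a window. TTCGAA stood in 3 members, 8.33% against 1.82%, and CCAAT in 29, 80.6% against 39.7%. No motif overlapped another in the stretches printed. Each stretch gives the 130 bases before the start, 5′ to 3′ on the strand of the gene, with TTTGAA and CCAAT of either strand in capitals. CCNB2, PLK1, CDC20 and CENPA were among the deepest falls in HepG2 and ZWINT the deepest in SNU475, and CCNB1 is a cyclin with CCAAT and no TTTGAA. Not printed are BUB1 and CCNA2, whose windows hold no TTTGAA, though that of BUB1 holds the variant TTCGAA. In HepG2 at day 10 they fell as deeply, with changes of -2.86 and -2.67.
CCNB2, chr15:59105016-59105145, plus strand: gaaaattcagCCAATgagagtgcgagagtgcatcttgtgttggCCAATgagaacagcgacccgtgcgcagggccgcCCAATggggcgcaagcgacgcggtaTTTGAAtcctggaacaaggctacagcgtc
PLK1, chr16:23678759-23678888, plus strand: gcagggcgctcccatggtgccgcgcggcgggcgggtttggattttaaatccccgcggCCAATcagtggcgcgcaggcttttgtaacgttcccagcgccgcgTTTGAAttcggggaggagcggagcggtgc
CDC20, chr1:43358851-43358980, plus strand: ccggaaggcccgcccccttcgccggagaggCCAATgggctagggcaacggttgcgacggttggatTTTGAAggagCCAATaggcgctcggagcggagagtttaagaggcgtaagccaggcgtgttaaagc
CENPA, chr2:26785926-26786055, plus strand: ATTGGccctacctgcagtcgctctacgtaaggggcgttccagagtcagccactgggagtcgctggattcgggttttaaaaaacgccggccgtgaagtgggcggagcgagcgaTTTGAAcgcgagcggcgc
ZWINT, chr10:56361260-56361389, minus strand: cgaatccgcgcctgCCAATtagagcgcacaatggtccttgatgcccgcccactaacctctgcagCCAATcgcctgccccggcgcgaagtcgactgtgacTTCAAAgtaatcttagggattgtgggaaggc
CCNB1, chr5:69167020-69167149, plus strand: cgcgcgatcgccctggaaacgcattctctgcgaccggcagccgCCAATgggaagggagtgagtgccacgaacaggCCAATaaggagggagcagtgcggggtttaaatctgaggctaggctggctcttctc
In CCNB2 and PLK1 the TTTGAA begins 29 bases before the start, with the nearest CCAAT at 54 and 73 bases. The depth of the fall is given for members with and without TTTGAA as a description, with no test. In HepG2 at day 10 the 27 genes with it had a median change of -2.22 and the 9 without it -2.07, in SNU398 -1.32 and -1.39, and in SNU475 -0.90 and -0.88. Among those 9, BUB1 and CDCA5 hold the variant TTCGAA, so the 9 are not all without the element.

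HepG2 at day 3 showed little movement. Only 2 members were lower and 2 higher, against 6.54% and 8.15% of all genes, and the median change of the members was -0.09 against 0.00 over all genes. PLK1, the polo kinase that drives centrosome maturation and mitotic entry, was lower by a change of -0.57±0.14 (adjusted p = 0.00571), and UBE2C, the ubiquitin-conjugating enzyme of the anaphase-promoting complex, rose by 0.50±0.11 (adjusted p = 0.0013). ECT2, an activator of RhoA in cytokinesis, had -0.36±0.12 and ESPL1, the separase that cuts cohesin, 0.52±0.16. The count of 4 fell to 1 without replicate 1 of untreated cells, to 2 without untreated replicate 2 and to 1 without replicate 1 of day 3. The call of PLK1 was lost without untreated replicate 1 or day 3 replicate 1, that of ESPL1 without either untreated array or day 3 replicate 1, and that of ECT2 without any of the 4 arrays, while UBE2C passed in every such fit.

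At day 10 HepG2 was lower in every role group. The deepest fall was in BIRC5, or survivin, which localizes the chromosomal passenger complex. BIRC5 stood at 12.05 and 12.16 on the untreated arrays, at 11.82 and 12.21 on day 3, at 9.17 and 8.91 on day 10, at 11.38 and 11.49 on day 17 and at 11.28 and 11.09 on day 24. The day 10 arrays lay far below all others, and the arrays of days 17 and 24 still lay under all untreated and day 3 arrays. Its change at day 10 was -3.07±0.13, an 8.37-fold fall (adjusted p = 6.87e-17). Next came the checkpoint kinase BUB1 with -2.86±0.12 or 7.24-fold (adjusted p = 5.23e-17), CDC20 with -2.82±0.15 or 7.08-fold (adjusted p = 3.42e-15), and the B-type cyclin CCNB2 with -2.72±0.12. Of the 43 called, 42 fell at least 2-fold. Against day 3, in the same array set, 43 members were lower as well, with 12.7% of all genes and a median of -2.10, led by BIRC5 with -2.97, UBE2C with -2.85, BUB1 with -2.67 and NCAPG with -2.60.

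The genes of mitotic entry fell as a group in HepG2. All 5 of the cyclins, CDK1 and its activating phosphatase CDC25C were lower, with a median of -2.43 and a range from -2.72 to -1.96. CDK1, the kinase that starts mitosis, went from 11.73 and 11.68 untreated and 11.44 and 11.44 at day 3 to 9.29 and 9.25 at day 10, then to 11.02 and 10.98 at day 17 and 10.94 and 10.81 at day 24. CCNB1, its partner cyclin, read 10.69 and 10.74 untreated, 10.68 and 10.71 at day 3, 8.61 and 8.90 at day 10, 10.56 and 10.49 at day 17 and 10.14 and 10.03 at day 24. In both genes the day 10 arrays did not overlap those of any other day. The changes at day 10 were -2.43±0.10 for CDK1 and -1.96±0.14 for CCNB1, 5.40-fold and 3.90-fold lower. The 3 kinases of the centrosome and spindle, AURKA, PLK1 and NEK2, fell by a median of 2.07 on the log2 scale. PLK1 went from 10.25 and 10.02 untreated and 9.38 and 9.76 at day 3 to 7.31 and 7.62 at day 10, 9.34 and 9.43 at day 17 and 9.09 and 8.85 at day 24. The change of PLK1 at day 10 was -2.67±0.14 (adjusted p = 4.91e-15), and every later array stayed under the untreated pair.

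The passenger complex had the largest median fall of the role groups in HepG2, -2.52 over AURKB, BIRC5 and CDCA8, all 3 of them lower. Of the 5 spindle checkpoint genes 4 were lower. BUB1, which recruits the checkpoint to kinetochores, went from 10.50 and 10.76 untreated and 10.46 and 10.43 at day 3 to 7.82 and 7.72 at day 10, then to 10.15 and 10.28 at day 17 and 9.92 and 9.75 at day 24. BUB3, the binding partner that carries BUB1 to kinetochores, was the exception. It read 13.48 and 13.53 untreated, 13.61 and 13.75 at day 3, 13.69 and 13.49 at day 10, 13.67 and 13.55 at day 17 and 13.48 and 13.47 at day 24. Its day 10 arrays overlapped the untreated and the day 3 ones, and its change at day 10 was 0.09±0.14 (adjusted p = 0.685). The sign of that change turned to -0.02 without replicate 1 of day 10 and to -0.11 over the mean of its probes.

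**Figure D2:**
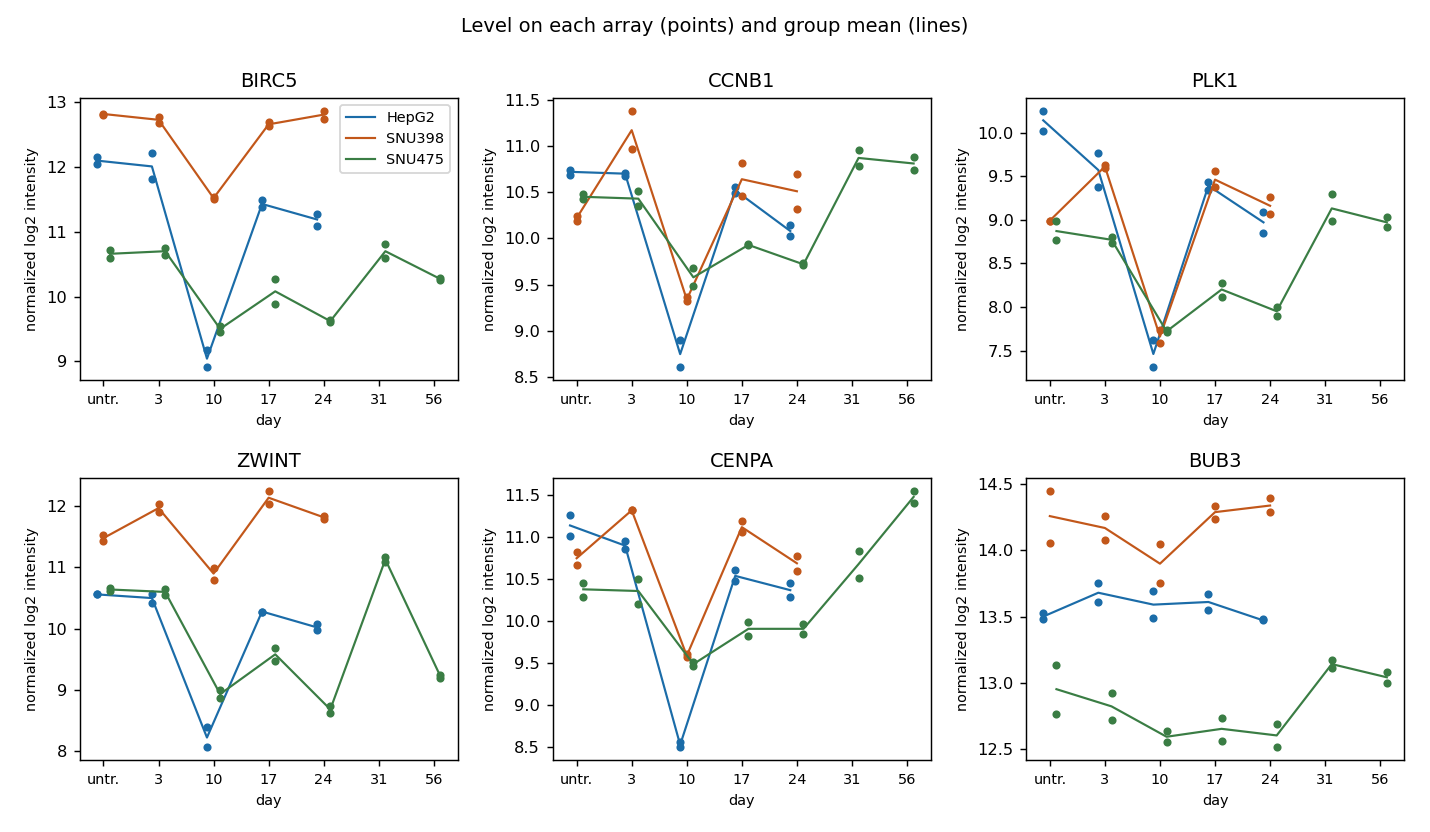
Normalized log2 intensity of BIRC5, CCNB1, PLK1, ZWINT, CENPA and BUB3 on each array (points, 2 for each line and day) with group means joined by lines, by sampled day. BIRC5 in HepG2 drops to 9.17 and 8.91 at day 10 from 12.05 and 12.16, while BUB3 in HepG2 stays between 13.47 and 13.75.

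All 9 centromere and kinetochore genes were lower in HepG2 at day 10, from -2.61 to -1.64. CENPA, the histone H3 variant that marks the centromere, read 11.26 and 11.02 untreated, 10.95 and 10.86 at day 3, 8.50 and 8.56 at day 10, 10.48 and 10.61 at day 17 and 10.29 and 10.45 at day 24. Its arrays of days 17 and 24 lay above those of day 10 and below the untreated ones, with no overlap. Its change at day 10 was -2.61±0.13, or 6.09-fold (adjusted p = 1.26e-15). SPC25 of the NDC80 complex, which binds microtubules, was above background on 1 of its 2 day 10 arrays and was at least 5.13-fold lower. All 6 genes of chromosome structure and cohesion were lower, with a median of -1.71. TOP2A, which untangles sister DNA, went from 12.57 and 12.74 untreated and 12.62 and 12.68 at day 3 to 10.48 and 10.47 at day 10, and was back at 12.68 and 12.70 at day 17 and 12.18 and 12.30 at day 24. NCAPD2, a condensin subunit, read 10.72 and 10.59 untreated, 10.94 and 10.90 at day 3, 9.49 and 9.14 at day 10, 10.83 and 10.71 at day 17 and 10.21 and 10.39 at day 24. In TOP2A and NCAPD2 the day 17 arrays overlapped the untreated ones. MKI67, the Ki-67 protein of the chromosome surface, stood at 8.16 and 8.04 untreated and 8.22 and 8.13 at day 3, was not above background at day 10, and read 7.74 and 7.91 at day 17 and 7.28 and 7.53 at day 24. It was at least 2.19-fold lower at day 10 (measured change -1.48±0.16, adjusted p = 1.6e-08). NCAPH, another condensin subunit, was above background in untreated cells and on no later day, and was at least 1.10-fold lower at day 10.

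Of the 5 anaphase genes 4 were lower in HepG2, with a median of -2.35. CDC20, which activates the anaphase-promoting complex, went from 13.55 and 13.25 untreated and 12.94 and 13.33 at day 3 to 10.56 and 10.59 at day 10, 13.00 and 12.83 at day 17 and 12.40 and 12.22 at day 24. The day 24 arrays of CDC20 lay under those of day 17. ESPL1 was the other member not called, with -0.39±0.16 (adjusted p = 0.0653), and it passed the test without replicate 1 of day 10, with -0.58. The 4 spindle microtubule genes fell within a narrow range, from -2.50 to -2.13. TPX2, which seeds spindle microtubules and activates AURKA, went from 11.48 and 11.11 untreated and 11.31 and 11.47 at day 3 to 9.15 and 9.18 at day 10, 11.25 and 11.35 at day 17 and 10.68 and 10.96 at day 24. The 4 cytokinesis genes fell from -2.42 to -1.59. CEP55, which directs the final cut at the midbody, read 9.94 and 10.17 untreated, 9.76 and 9.88 at day 3, 7.81 and 7.46 at day 10, 9.50 and 9.57 at day 17 and 8.71 and 8.89 at day 24. FOXM1, the transcription factor of G2 and M phase genes, went from 9.64 and 9.37 untreated and 9.41 and 9.53 at day 3 to 7.57 and 7.68 at day 10, 9.75 and 9.24 at day 17 and 8.96 and 9.12 at day 24. FOXM1 itself thus fell 3.68-fold (change -1.88±0.14) and had day 17 arrays on either side of the untreated pair. In HepG2 at day 10 the fibroblast markers gave 1 higher of 6 tested, the blood cell markers 2 higher and 1 lower of 5 and the endothelial markers 1 higher of 2. Over all genes 18.1% were higher and 14.7% lower. In untreated HepG2 1 of the fibroblast, 3 of the blood cell and 0 of the endothelial markers were above background. The log2 summed levels of these markers, in that order, were 9.61, 11.17 and 7.71 untreated and 9.99, 13.24 and 8.94 at day 10. Their part in the result was not tested.

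HepG2 regained most of the fall by day 17. Between days 10 and 17, 43 of 45 members rose, against 13.1% of all genes, with a median of 1.87 or 3.66-fold. The largest rises were those of cyclin A2, CCNA2, with 2.47±0.11 (5.53-fold, adjusted p = 1.92e-15), BUB1 with 2.44±0.12, BIRC5 with 2.39±0.13 and CDC20 with 2.34±0.15. Over the 45 members the median share of the log2 fall regained was 85.9%. Against untreated cells 18 members were still lower at day 17 and 1 was higher, with 11.4% and 14.4% of all genes. The members furthest below were NEK2 and PLK1 with -0.75, PTTG1, or securin, with -0.72 and CDK1 with -0.70, and the higher member was ESPL1 with 0.75±0.16 (adjusted p = 0.000686). Without replicate 2 of untreated HepG2 the count of 19 dropped to 12.

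The return in HepG2 then slipped back. At day 24 42 of 45 members were lower than untreated, against 12.6% of all genes, with a median of -0.62, and the median share of the fall regained was 71.2%. The lowest were CEP55 with -1.25±0.15 (adjusted p = 1.77e-07), PLK1 with -1.16±0.14, CDC20 with -1.09±0.15 and BIRC5 with -0.92±0.13. The members not called were BUB1B, the kinase BubR1, with -0.26, ESPL1 with -0.15 and BUB3 with -0.03. From day 17 to day 24 14 members fell, against 5.10% of all genes, with ESPL1 at -0.90±0.16, CEP55 at -0.74±0.15 and CDC20 at -0.60±0.15 furthest down, and CCNA2 at -0.59±0.11. Leaving out an array moved that count of 14 to 4 without replicate 1 of day 17, to 7 without its replicate 2, to 5 without replicate 1 of day 24 and to 7 without its replicate 2. The call of CDC20 from day 17 to day 24 was lost without replicate 1 of day 17 or replicate 2 of day 24.

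**Figure D3:**
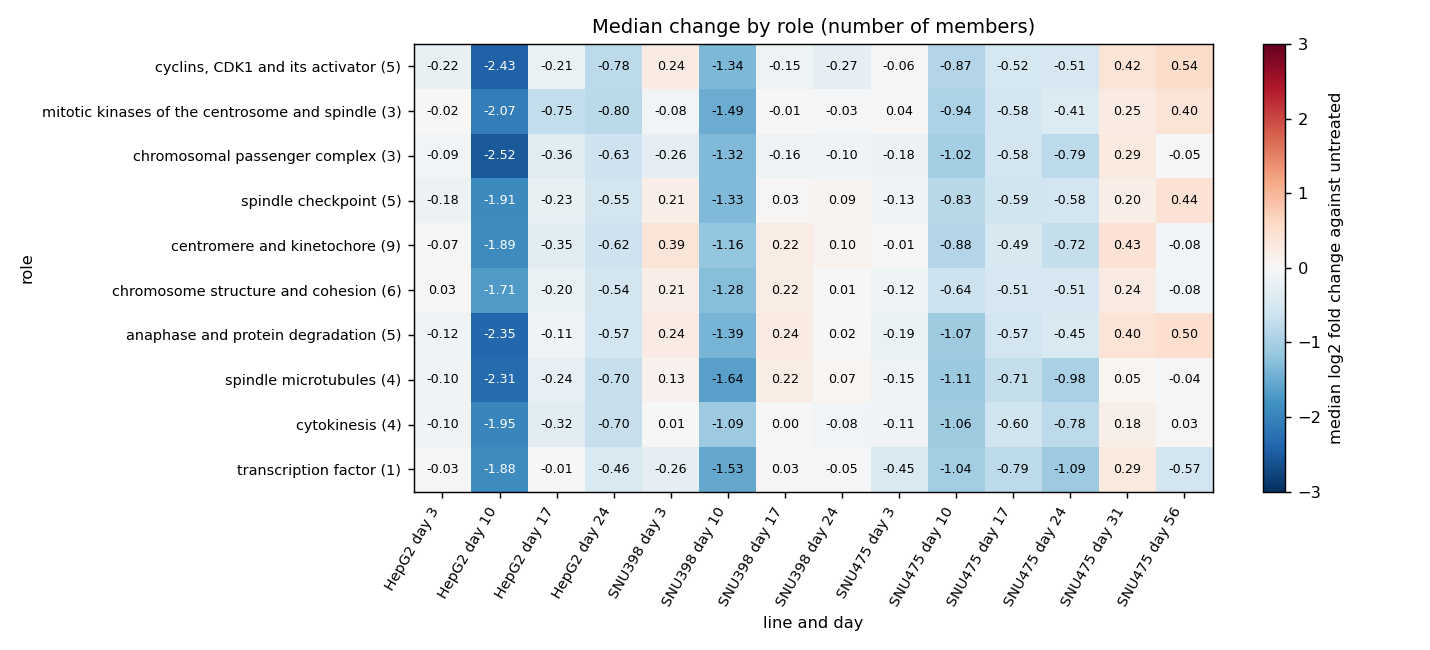
Median log2 fold change against untreated cells for each role group (rows, with the number of members) by line and day (columns). In HepG2 at day 10 every role group has a median of -1.71 or lower, and in SNU475 the medians stay below 0 from day 10 to day 24 and are above 0 at day 31.

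In SNU398 the members were split at day 3. Against untreated cells 13 were higher and 5 lower, with 17.0% and 16.5% of all genes, and a median of 0.16. CENPF, a kinetochore protein of late G2, rose by 0.97±0.14 (adjusted p = 4.7e-06), CCNB1 by 0.96±0.14 (adjusted p = 5.33e-06) and the condensin subunit NCAPG by 0.67±0.14. The 5 lower members were CDC25C with -0.63±0.13, NEK2 with -0.53±0.12, CDK1 with -0.36±0.10, the checkpoint kinase TTK with -0.34±0.12 and CDCA8, or borealin, with -0.31±0.12. The calls of TTK and CDCA8 were lost without either untreated array, that of CDCA8 also without replicate 1 of day 3 and that of TTK without its replicate 2, and that of CDK1 without untreated replicate 1. The untreated arrays belong to another set than the treated ones.

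At day 10 the fall in SNU398 was seen within the set and across it. Against untreated cells 43 of 45 were lower, 37 of them at least 2-fold, and against day 3, within the set, 44 of 45 were lower with a median of -1.44 (2.71-fold), where 14.8% of all genes were lower. The deepest against untreated cells were AURKB, the kinase of the passenger complex, with -2.15±0.13, TOP2A with -2.02±0.12, CDK1 with -1.98±0.10 and NEK2 with -1.97±0.12. CDK1 went from 13.02 and 12.87 untreated and 12.61 and 12.55 at day 3 to 11.01 and 10.92 at day 10, 12.42 and 12.60 at day 17 and 12.60 and 12.67 at day 24. TOP2A read 12.89 and 12.95 untreated, 12.93 and 12.86 at day 3, 10.95 and 10.84 at day 10, 12.42 and 12.52 at day 17 and 12.62 and 12.72 at day 24. The day 10 arrays of both genes were apart from all others, and their later arrays stayed under the untreated ones. From day 3 to day 10 the deepest were the spindle protein DLGAP5 with -2.32±0.14 (5.0-fold, adjusted p = 2.33e-13), CCNA2 with -2.23±0.11, the hyaluronan-binding spindle protein HMMR with -2.07±0.13 and CDCA3, an adaptor for degradation at mitotic entry, with -2.05±0.13. CENPF with -0.21±0.14 (adjusted p = 0.279) and CDCA5, or sororin, the protector of cohesin, with -0.21±0.14 (adjusted p = 0.264) were not called against untreated cells.

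The other genes followed in SNU398 also had their lowest mean at day 10. BIRC5 read 12.82 and 12.81 untreated, 12.68 and 12.77 at day 3, 11.50 and 11.54 at day 10, 12.63 and 12.69 at day 17 and 12.75 and 12.87 at day 24. CCNB1 read 10.24 and 10.19 untreated, 11.38 and 10.97 at day 3, 9.32 and 9.37 at day 10, 10.46 and 10.82 at day 17 and 10.32 and 10.70 at day 24. PLK1 read 8.99 and 8.99 untreated, 9.63 and 9.59 at day 3, 7.59 and 7.74 at day 10, 9.37 and 9.56 at day 17 and 9.06 and 9.26 at day 24. In each the day 10 arrays were the lowest, and CCNB1 and PLK1 lay above their untreated arrays on all other treated days. BUB1 read 10.89 and 11.01 untreated, 11.27 and 11.07 at day 3, 9.41 and 9.61 at day 10, 10.83 and 10.83 at day 17 and 10.83 and 10.95 at day 24. CENPA stood at 10.67 and 10.82 untreated, 11.32 and 11.32 at day 3, 9.61 and 9.57 at day 10, 11.06 and 11.19 at day 17 and 10.60 and 10.78 at day 24. CDC20 had levels of 13.78 and 13.64 untreated, 13.91 and 14.14 at day 3, 12.61 and 12.72 at day 10, 14.05 and 14.03 at day 17 and 13.89 and 13.89 at day 24. Their day 10 arrays were again apart from all others, and CENPA at day 3 and day 17 lay above its untreated arrays. TPX2 read 12.07 and 12.11 untreated, 12.07 and 12.20 at day 3, 11.14 and 10.97 at day 10, 12.17 and 12.20 at day 17 and 12.08 and 11.95 at day 24. CEP55 stood at 11.30 and 11.48 untreated, 11.50 and 11.42 at day 3, 10.39 and 10.31 at day 10, 11.50 and 11.52 at day 17 and 11.23 and 11.08 at day 24. NCAPD2 had levels of 11.15 and 11.20 untreated, 11.23 and 11.33 at day 3, 9.80 and 9.91 at day 10, 11.21 and 11.28 at day 17 and 11.01 and 10.93 at day 24. In these genes of the spindle, the midbody and condensin, no other day reached down to the day 10 pair. MKI67 read 9.08 and 8.93 untreated, 8.92 and 9.26 at day 3, 7.55 and 7.76 at day 10, 9.12 and 8.53 at day 17 and 8.87 and 8.65 at day 24. FOXM1 stood at 10.09 and 10.01 untreated, 9.77 and 9.81 at day 3, 8.50 and 8.54 at day 10, 10.17 and 9.99 at day 17 and 9.88 and 10.12 at day 24. Both were lowest at day 10, and FOXM1 was back among its untreated values by day 17. By the probe used, BUB3 moved least, with 14.06 and 14.45 untreated, 14.08 and 14.26 at day 3, 14.05 and 13.75 at day 10, 14.24 and 14.34 at day 17 and 14.29 and 14.40 at day 24. Its day 10 arrays were its lowest, by a narrow margin. The other probes of BUB3 had -0.74, -0.64 and -0.76 against untreated cells at day 10, each called lower. The probe with -0.64 was above background in only 3 groups. The change of BUB3 against untreated cells, -0.36±0.14 (adjusted p = 0.0473), lost its call without replicate 2 of untreated cells or of day 10. In SNU398 at day 10, 5 of 6 fibroblast markers were higher, against 20.0% of all genes. The log2 summed level of these markers was 13.53 untreated and 14.01 at day 10, in a range from 13.37 to 14.07 over the days. Their part in the result was not tested.

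SNU398 regained most of the fall by day 17. From day 10 to day 17 all 45 members rose, against 12% of all genes, with a median of 1.37 or 2.59-fold, led by DLGAP5 with 2.13±0.14, HMMR with 2.11±0.13, CCNA2 with 2.06±0.11 and CDCA3 with 1.98±0.13. Of the fall from day 3 to day 10, within the set, a median of 94.2% was regained at day 17 and 90.2% at day 24. From day 17 to day 24 only SPC25, with -0.62±0.16, and CENPA, with -0.43±0.13, were called, both lower, against 5.37% of all genes. Without replicate 1 of day 17 or either array of day 24 the count was 0, and without replicate 2 of day 17 it was 1, a higher member, so that SPC25 and CENPA lost their calls in each of these 4 fits.

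Against untreated cells, which belong to another array set, members were called in both directions in SNU398 at days 17 and 24. Their counts were near the background of all genes. At day 17 9 members were higher and 7 lower, with 18.2% and 16.3% of all genes, and at day 24 5 were higher and 4 lower, with 11% and 8.90%. CENPF was highest at both, with 0.83±0.14 and 0.68±0.14, followed at day 17 by SPC25 with 0.72±0.16 and ZWINT, a kinetochore scaffold, with 0.66±0.12. NEK2 was lowest at both, with -0.71±0.12 and -0.57±0.12. At day 17 the lower members also held TTK with -0.57, CDC25C with -0.56, NUF2 of the NDC80 complex with -0.48, TOP2A with -0.45, CDK1 with -0.44 and AURKB with -0.39. At day 24 they held CDC25C with -0.44, UBE2C with -0.41 and CDK1 with -0.32, and the sign of UBE2C turned, to 0.03, over the mean of its probes. AURKB and NUF2 at day 17 lost their calls without any 1 of the 4 arrays and TOP2A without replicate 1 of day 17. At day 24 CDC25C lost its call without untreated replicate 1 or day 24 replicate 1, UBE2C without untreated replicate 2 or day 24 replicate 1, and CDK1 without any array but untreated replicate 2. The count of 16 at day 17 dropped to 8, with 5 lower, without replicate 2 of day 17. The count of 9 at day 24 dropped to 4 without untreated replicate 1, to 4 without untreated replicate 2, to 3 without replicate 1 of day 24 and to 5 without its replicate 2. Without untreated replicate 2 or day 24 replicate 2 the lower members then outnumbered the higher.

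In SNU475 0 members were called by limma at day 3, with 3.79% of all genes called, and 2 were lower at an unadjusted p under 0.05, and the member changes ran from -0.45 to 0.26. At day 10 41 of 45 were lower, 19 of them at least 2-fold. ZWINT fell deepest, with -1.71±0.12 (3.26-fold, adjusted p = 9.62e-12), then NCAPG with -1.67±0.14, CDCA3 with -1.32±0.13 and CENPF with -1.31±0.14. The members not called were the centromere protein CENPN with -0.37, BUB3 with -0.36, ECT2 with -0.26 and NCAPH, not above background on any day, with -0.24. The other probes of BUB3 had 0.01, -0.37 and -1.20, of which only that with -1.20 was called lower. BUB3 passed the test without untreated replicate 1. ZWINT read 10.61 and 10.66 untreated, 10.55 and 10.65 at day 3, 8.86 and 9.0 at day 10, 9.47 and 9.68 at day 17, 8.62 and 8.74 at day 24, 11.09 and 11.17 at day 31 and 9.20 and 9.24 at day 56. It thus fell, recovered at day 31 above its untreated arrays, and was low again at day 56. Against day 3, which lies in the set of the untreated arrays, 41 of 45 were lower as well, with 7.69% of all genes. Without any further normalization of the deposited values the median over all genes was -0.23 in the comparison with untreated cells and that over the members -1.24. At day 10 in SNU475 4 of 6 fibroblast markers were higher, against 11.6% of all genes, and all 6 were above background on every day. The log2 summed level of these markers was 14.60 untreated and 15.33 at day 10, with a range from 14.42 to 15.53 over the days. Their part in the result was not tested.

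Most members stayed below their untreated levels in SNU475 up to day 24, in comparisons that cross array sets. Without further normalization the median at day 24 was -0.95. At day 17 39 members were still lower than untreated, against 5.99% of all genes, with a median of -0.54, and at day 24 38, against 15.9%, with a median of -0.65. The day 17 count dropped to 24 without untreated replicate 1 or without replicate 2 of day 17. The lowest at day 17 were ZWINT with -1.06±0.12, FOXM1 with -0.79±0.14 and NCAPG with -0.77, and at day 24 ZWINT with -1.96±0.12 (3.89-fold, adjusted p = 3.5e-13), NCAPG with -1.57±0.14, CEP55 with -1.40±0.15 and CENPF with -1.35±0.14. From day 10 to day 17 10 members rose, against 0.268% of all genes, with NCAPG at 0.91±0.14 and ZWINT, CCNA2 and UBE2C at 0.65, 0.65 and 0.64. The count of 10 dropped to 2 without replicate 1 of day 10, to 3 without replicate 1 of day 17 and to 5 without its replicate 2, and the calls of NCAPG, ZWINT and CCNA2 were lost without replicate 1 of day 10, those of CCNA2 and UBE2C without replicate 1 of day 17 and that of ZWINT without its replicate 2. From day 17 to day 24 7 members fell and 2 rose, against 6.88% and 6.60%, with ZWINT at -0.90±0.12, NCAPG at -0.80±0.14, CEP55 at -0.69±0.15 and CENPF at -0.65±0.14. Without replicate 2 of day 24 that count of 9 became 5, CEP55 lost its call without replicate 2 of day 17, and CENPF without replicate 1 of day 24. A median of 40.5% of the fall was regained at day 17 and 18.8% at day 24.

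The genes followed in every sample differed in how much they had regained in SNU475 by day 24, with 76.9% of the log2 fall in CDK1, 10.2% in BIRC5, -4.09% in FOXM1 and -14.5% in CEP55, where a negative value is a level below that of day 10. BIRC5 read 10.72 and 10.59 untreated, 10.75 and 10.64 at day 3, 9.45 and 9.55 at day 10, 10.27 and 9.89 at day 17, 9.60 and 9.63 at day 24, 10.60 and 10.81 at day 31 and 10.28 and 10.25 at day 56. CCNB1 read 10.48 and 10.43 untreated, 10.35 and 10.51 at day 3, 9.68 and 9.49 at day 10, 9.94 and 9.93 at day 17, 9.73 and 9.71 at day 24, 10.78 and 10.96 at day 31 and 10.88 and 10.74 at day 56. In both, the arrays from day 10 to day 24 lay under every untreated and day 3 array. CDK1 read 11.68 and 11.75 untreated, 11.60 and 11.72 at day 3, 10.90 and 10.87 at day 10, 11.22 and 11.13 at day 17, 11.55 and 11.50 at day 24, 12.36 and 12.32 at day 31 and 12.72 and 12.57 at day 56. CENPA read 10.46 and 10.29 untreated, 10.50 and 10.21 at day 3, 9.47 and 9.52 at day 10, 9.99 and 9.83 at day 17, 9.97 and 9.85 at day 24, 10.51 and 10.84 at day 31 and 11.55 and 11.41 at day 56. CDK1 and CENPA ended above every earlier array. FOXM1 read 9.27 and 9.33 untreated, 9.0 and 8.71 at day 3, 8.25 and 8.27 at day 10, 8.53 and 8.50 at day 17, 8.23 and 8.21 at day 24, 9.58 and 9.61 at day 31 and 8.68 and 8.78 at day 56. MKI67 was above background untreated (7.54 and 7.25), at day 3 (7.32 and 7.20), at day 31 (7.97 and 8.02) and at day 56 (7.01 and 7.14), and not from day 10 to day 24. FOXM1 and MKI67 were thus highest at day 31 and under their untreated arrays at day 56. PLK1 read 8.98 and 8.77 untreated, 8.80 and 8.73 at day 3, 7.73 and 7.71 at day 10, 8.28 and 8.11 at day 17, 7.90 and 8.0 at day 24, 8.98 and 9.29 at day 31 and 9.03 and 8.92 at day 56. BUB1 stood at 10.49 and 10.48 untreated, 10.34 and 10.33 at day 3, 9.41 and 9.56 at day 10, 9.74 and 10.05 at day 17, 9.82 and 9.98 at day 24, 10.70 and 10.66 at day 31 and 11.23 and 11.28 at day 56. TOP2A had levels of 12.41 and 12.27 untreated, 12.34 and 12.13 at day 3, 11.30 and 11.58 at day 10, 11.81 and 12.09 at day 17, 11.99 and 11.70 at day 24, 12.57 and 12.52 at day 31 and 12.82 and 12.84 at day 56. BUB1 and TOP2A at day 56 lay above all their other arrays, while the PLK1 arrays of days 31 and 56 lay close to the untreated ones. CDC20 read 13.24 and 13.48 untreated, 13.48 and 13.19 at day 3, 12.31 and 11.98 at day 10, 12.72 and 12.72 at day 17, 12.46 and 12.45 at day 24, 13.46 and 13.55 at day 31 and 14 and 13.73 at day 56. TPX2 stood at 11.75 and 11.90 untreated, 11.61 and 11.70 at day 3, 10.85 and 10.69 at day 10, 11.03 and 11.20 at day 17, 10.92 and 10.68 at day 24, 11.80 and 11.62 at day 31 and 11.86 and 11.94 at day 56. CEP55 had levels of 11.10 and 11.15 untreated, 10.93 and 11.16 at day 3, 9.99 and 9.83 at day 10, 10.11 and 10.73 at day 17, 9.76 and 9.70 at day 24, 11.30 and 11.30 at day 31 and 10.94 and 11.06 at day 56. Of these, CEP55 was lowest at day 24 and CDC20 and TPX2 at day 10, TPX2 with nearly the same level at day 24. NCAPD2 read 10.81 and 10.91 untreated, 10.82 and 10.85 at day 3, 10.37 and 10.35 at day 10, 10.27 and 10.37 at day 17, 10.54 and 10.32 at day 24, 11.08 and 11.18 at day 31 and 10.88 and 11.07 at day 56. BUB3 stood at 12.76 and 13.13 untreated, 12.72 and 12.92 at day 3, 12.63 and 12.55 at day 10, 12.56 and 12.73 at day 17, 12.51 and 12.69 at day 24, 13.17 and 13.11 at day 31 and 13.08 and 13.00 at day 56. NCAPD2 was lowest at day 17, and the BUB3 arrays of days 10, 17 and 24 all lay under its lower untreated array.

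Most members rose in SNU475 between days 24 and 31, within 1 set of arrays. In that step 43 of 45 members rose, against 13.0% of all genes, with a median of 0.92 or 1.89-fold, 17 of them at least 2-fold. ZWINT rose by 2.46±0.12 (5.49-fold, adjusted p = 2.55e-14), NCAPG by 1.68±0.14, CEP55 by 1.57±0.15 and CENPF by 1.38±0.14. PTTG1, with 0.04, and NCAPH, with 0.16, were not called. The DNA replication genes rose in the same step in 32 of 36 and the mitotic kinesins in 11 of 11. Against untreated cells 11 members were higher at day 31, with 7.13% of all genes, and none was called lower, led by CENPN and MAD2L1 with 0.75 and CDK1 with 0.63±0.10, and MKI67 with 0.60±0.16. The count of 11 dropped to 7 without untreated replicate 1 and to 4 without replicate 2 of day 31, and the call of MKI67 was lost without untreated replicate 2 or day 31 replicate 2. The median of the members, 0.26, was -0.05 without further normalization, where the median over all genes was -0.24.

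At day 56 the members of SNU475 parted. Against day 31, within the set, 15 were lower and 7 higher, with 24.3% and 20.7% of all genes. The 22 called are thus near the background, which is 45% in either direction. ZWINT fell by 1.92 on the log2 scale (±0.12, 3.77-fold, adjusted p = 1.37e-13), CENPM of the centromere was lower with -1.21±0.13 and MKI67 with -0.92±0.16, while NEK2, a kinase of centrosome separation, rose by 0.96±0.12 (adjusted p = 2.83e-07). Of the 9 centromere and kinetochore genes 6 were lower and CENPA was higher, and none of the 5 cyclins, CDK1 and CDC25C was lower. Without replicate 2 of day 31 the count of 22 dropped to 14, and under cyclic loess 12 were higher and 9 lower. Against untreated cells 18 were higher and 8 lower, with 22.0% and 25.8% of all genes. CENPA (1.11±0.13), NEK2 (0.95±0.12) and CDK1 (0.93±0.10) were the highest. The 8 lower were ZWINT (-1.42±0.12), NCAPG (-0.77), CENPM (-0.74), FOXM1 (-0.57), HMMR (-0.46), ESPL1 (-0.40), BIRC5 (-0.39) and CENPF (-0.38). The calls of BIRC5 and CENPF were lost without untreated replicate 1 or either day 56 array, that of ESPL1 without either untreated array or day 56 replicate 1, and that of HMMR without untreated replicate 2 or day 56 replicate 1. The count of 26 dropped to 17 without untreated replicate 1 and to 15 without replicate 1 of day 56. Without further normalization 17 were lower and 8 higher, and the median of the members, 0.08, became -0.21, where the median over all genes was -0.27. Both other probes of CENPM were also lower than untreated at day 56, the 2 other probes of ZWINT had -1.90 and -0.67, and that of FOXM1 had -0.66. The other probe of BIRC5, with -0.16, and that of HMMR, with -0.18, were not called, and DLGAP5 and SPC25 had other probes that were higher, with 0.72 and 0.62, where the probes used had -0.03 and -0.24. At day 56 5 of 6 fibroblast markers were higher than untreated and 1 lower, with a median of 2.68, and 4 of 5 epithelial markers were lower. Their part in the result was not tested.

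**Figure D4:**
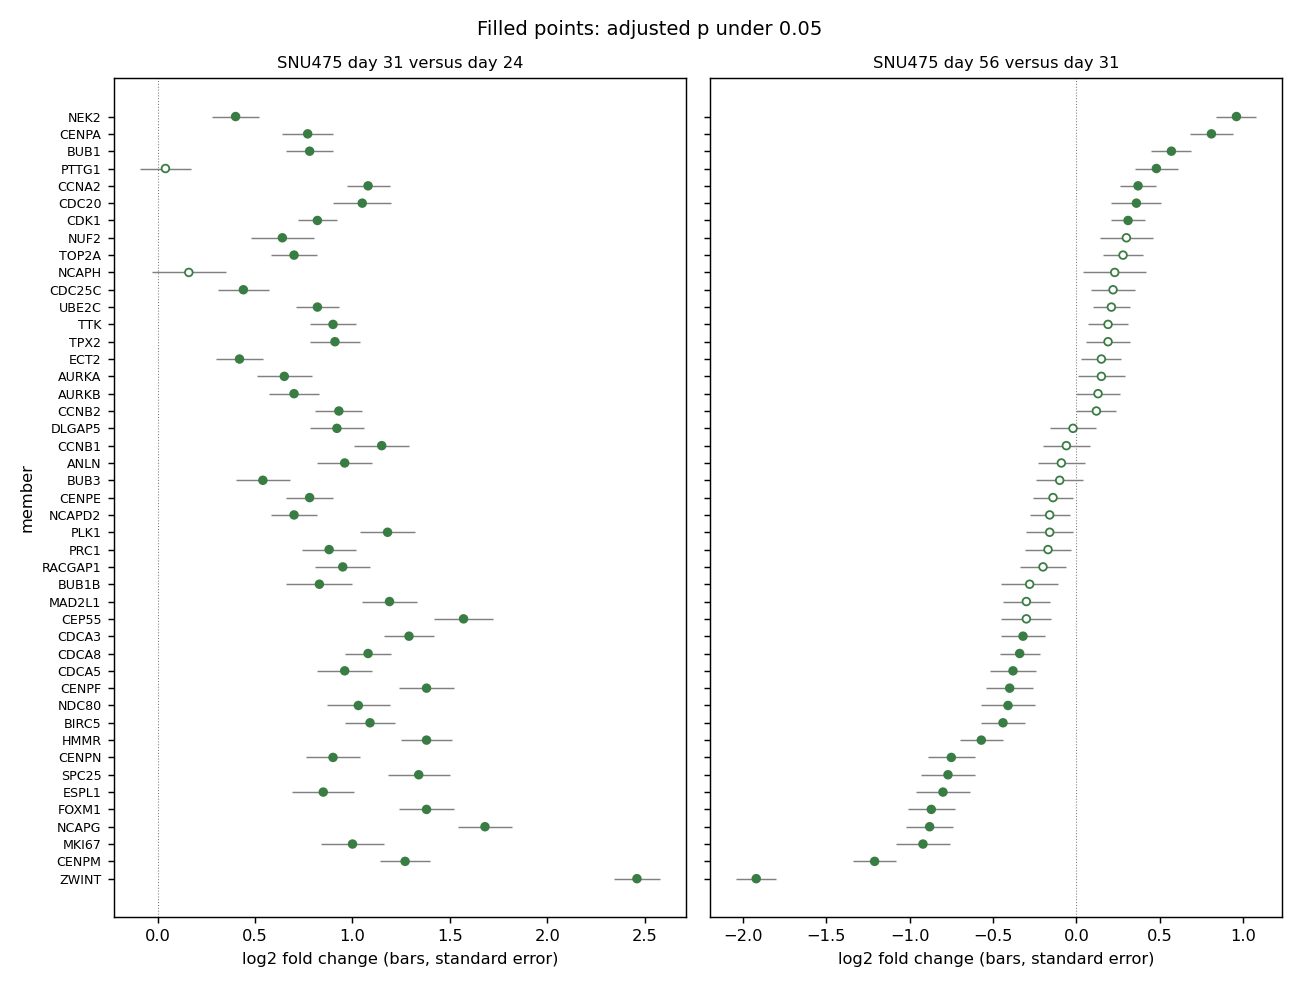
Log2 fold change of each mitosis gene in SNU475 from day 24 to day 31 (left) and from day 31 to day 56 (right), with standard errors; filled points passed the test, and genes are ordered by the right panel. All 45 lie above 0 on the left, with ZWINT at 2.46, while on the right they run from -1.92 (ZWINT) to 0.96 (NEK2).

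Depth and timing were set side by side across the lines. The lowest day was day 10 for 44 genes in HepG2, the exception being BUB3 at day 24, for all 45 in SNU398 and for 35 in SNU475. In SNU475 NCAPD2, ESPL1 and ECT2 were lowest at day 17, and BUB1B, CENPF, ZWINT, NCAPH, HMMR, CEP55 and FOXM1 at day 24. The fall at day 10 against untreated cells was deeper in HepG2 than in SNU398 for 42 of the 45 and than in SNU475 for 43. These changes cross array sets in SNU398 and SNU475. From day 3 to day 10, within sets, the change was lower in HepG2 than in SNU398 for 39. Over the 45 genes the changes at day 10 had Pearson's r of 0.62 between HepG2 and SNU475, 0.37 between HepG2 and SNU398 and 0.07 between SNU398 and SNU475, as a description across genes, which share their arrays and are not replicates.

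**Figure D5:**
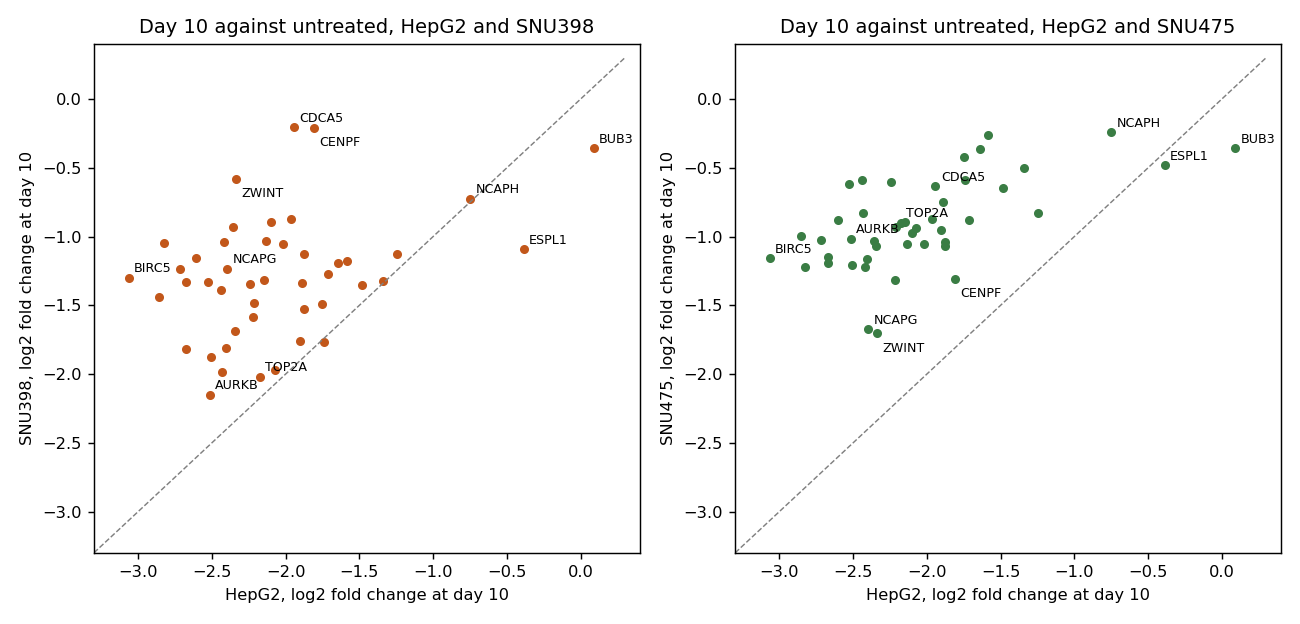
Log2 fold change at day 10 against untreated cells for each of the 45 mitosis genes in HepG2 (horizontal) and in SNU398 or SNU475 (vertical); the dashed line marks equal change. Most points lie above the line, 42 of 45 in SNU398 and 43 in SNU475, and ESPL1 and BUB3 lie furthest to the right. The changes of SNU398 and SNU475 cross array sets.

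The differences between lines were tested over the same days, within array sets. From day 3 to day 10 the change in HepG2 was lower than in SNU398 for 24 members and higher for 1, against 12.6% and 10.6% of all genes, with a median difference of -0.57. BIRC5 differed most, with -1.76±0.19 (adjusted p = 6.5e-08), then CDC25C with -1.46±0.18, CDCA5 with -1.28±0.20 and UBE2C with -1.25±0.15. The 1 in the other direction was NCAPH, with 1.03±0.27, which was below background in HepG2 on both days. Other probes were compared against untreated cells at day 10, across sets in SNU398. That of UBE2C went the other way, with -0.66 in HepG2 and -1.07 in SNU398. That of BIRC5 had -2.24 and -1.65, where the probe used had -3.07 and -1.30. Those of CDC25C had -1.37 and -2.37 in HepG2 and, in the same order, -1.36 and -1.11 in SNU398. From day 10 to day 24 HepG2 and SNU398 differed in 14 members, 11 with a larger rise in HepG2 and 3 with a smaller one, against 10.7% and 9.77% of all genes. CCNB2 with 0.97±0.17, ZWINT with 0.87±0.17 and CDC25C with 0.87±0.18 rose more in HepG2, and ESPL1 with -0.88±0.23 less. Without replicate 1 of HepG2 at day 10 the count of 14 was 9 and the call of ESPL1 was lost.

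The rise from day 10 to day 24 was smaller in SNU475 than in the other lines for most members. This comparison is of the log2 rise itself. The fall it follows had medians at day 10 of -2.15 in HepG2, -1.32 in SNU398 and -0.94 in SNU475. The medians of SNU398 and SNU475 cross array sets and were -1.21 and -1.24 without further normalization, with -2.19 in HepG2. At day 24 42 members were lower than untreated in HepG2, at a median of -0.62, and 38 in SNU475, at -0.65. The SNU475 comparison crosses array sets, and without further normalization these medians were -0.64 and -0.95. The test is of the rise alone and does not bear on how complete the return was. Over the same days 10 to 24 the rise was larger in HepG2 than in SNU475 for 41 members, against 8.87% of all genes, with a median difference of 1.26 or 2.40-fold. ZWINT with 2.05±0.17 (adjusted p = 1.43e-09), BIRC5 with 2.03±0.19, NCAPG with 1.76±0.20 and MAD2L1, the checkpoint protein that inhibits CDC20, with 1.73±0.20 differed most. The rise was larger in SNU398 than in SNU475 for 42 members, against 8.88% of all genes, with a median of 1.05. HMMR with 2.16±0.19 (adjusted p = 2.34e-09), DLGAP5 with 1.75±0.20, NCAPG with 1.66±0.20 and BUB1B with 1.64±0.23 led. No member was called with the smaller rise in either comparison. These comparisons share the arrays of SNU475, and those within HepG2 or SNU398 share theirs.

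Further lists of the cell cycle were set beside the 45. The share of all genes lower at day 10 was 14.7% in HepG2, 15.4% in SNU398 and 8.99% in SNU475. Of 69 other mitosis genes tested, 59 were lower and 1 higher at day 10 in HepG2 (median -1.19), 54 lower and 4 higher in SNU398 (-0.77), and 48 lower in SNU475 (-0.60). OIP5, a loader of CENPA, with -2.45 and the kinase MELK with -2.40 were furthest down in HepG2, and CDKN3 with -2.01 and PBK with -2.0 in SNU398. All 11 mitotic kinesins were lower in each line, with medians of -1.95, -1.42 and -0.86, led by KIF20A, a kinesin of cytokinesis, with -2.57 in HepG2 and -2.13 in SNU398. The DNA replication genes were lower in 34 of 36 in HepG2 (median -1.46), 22 in SNU398 (-0.47, with 1 higher) and 29 in SNU475 (-0.61). CDC45 with -2.46 and TK1 with -2.41 led in HepG2, PRIM1 with -1.70 and RRM1 with -1.63 in SNU398. At day 56 in SNU475 27 of the 36 replication genes were lower than untreated and 3 higher, against 25.8% and 22.0% of all genes. That comparison crosses array sets, and without further normalization the median over all genes was -0.27.

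Regulators of cell cycle transcription were called in both directions. Of 27 tested, 11 were lower and 3 higher at day 10 in HepG2, 8 and 5 in SNU398, and 7 and 2 in SNU475. Over all genes 18.1% were higher at day 10 in HepG2, 20% in SNU398 and 11.6% in SNU475, so the counts of higher regulators are not above the background. E2F2 with -2.31 and the cyclin CCNE1 with -1.40 moved most in HepG2, and in SNU398 the cyclin CCND1 rose by 1.64±0.12 and CDKN1A by 1.28±0.14. CDKN1A encodes p21, the inhibitor of cyclin-dependent kinases that switches MuvB to repression. It was higher at day 10 in each line, by 0.70±0.14 in HepG2 (adjusted p = 0.000152), 1.28±0.14 in SNU398 (adjusted p = 1.3e-08) and 0.52±0.14 in SNU475 (adjusted p = 0.00589). CDKN1A did not return with the mitosis genes in SNU398, where it was 1.63±0.14 higher at day 17 and 0.96±0.14 at day 24. The comparisons of CDKN1A with untreated cells cross array sets in SNU398 and, from day 10 on, in SNU475. In SNU475 it had 0.44±0.14 at day 24 and 0.10±0.14 (adjusted p = 0.704) at day 31. The part of CDKN1A in the fall of the mitosis genes was not tested.

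At day 10 most further probes of the members were lower too. Of 24 further probes kept for 19 members with more than 1, 20 were lower at day 10 in HepG2, 22 in SNU398 and 17 in SNU475, and none was higher. The share lower over all genes, counted by gene and not by probe, was 14.7%, 15.4% and 8.99%. Depth differed between probes of a gene. In HepG2 further probes of UBE2C (-0.66 against -2.35), NEK2 (-1.06 against -2.07) and SPC25 (-0.88 against -2.36) fell less than the probe used. Those of HMMR (-2.84 against -2.50) and AURKA (-2.26 against -1.75) fell more. The third probe of ZWINT, above background in 4 groups, had -0.02 in HepG2 and 0.00 in SNU398, where its used probe had -2.34 and -0.58.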

How the data were processed

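Expression of 3 lines was measured on 34 Illumina arrays, 2 for each of 17 groups. The authors deposited a table of linear intensity values for 47230 probes, and the sources used here do not give its normalization. Another table, from before normalization, has 72 columns whose names match no label, and these were not used. Symbols came from GEO's platform annotation. 30113 probes had 1 symbol, 8 several and 17109 none, and 30074 were matched to RefSeq.

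In R 4.3.3 with limma 3.58.1, intensities were background-corrected (normexp, offset 50), quantile-normalized and log2-transformed. A probe was kept if both arrays of a group exceeded 6.97, which is the mode, 6.48, plus 1.645 times the spread, 0.298. A gene took its kept probe of highest mean. The fit held 17 group means and gave 17 residual degrees of freedom, with 29 comparisons and Benjamini-Hochberg adjustment over 15297 genes in each. An "at least" fold sets the brighter group against the background limit or the dim probe's own value. Array number limits the precision. The steps were tested on simulated data.

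Members and lists were chosen with earlier results of these data known. Named are the 4 members with the largest called change in a comparison, those going against the majority, members not called at day 10, and 14 genes followed in every sample. ZWINT was added after its values were seen. Alternatives were background correction, normalization, filter, probe choice, the line fitted alone, the replicate number as a block and leaving out each array.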

Additional observations from a re-analysis of the deposited data

Results flagged for a closer look

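The results given here are tested differences between lines in the same change, where the lines' arrays lay within array sets. From day 3 to day 10, 25 mitosis genes changed differently in HepG2 and SNU398. The difference was lower for 24 and higher for 1, against 12.6% and 10.6% of all genes. The difference, HepG2 minus SNU398, was -1.76 for BIRC5, -1.46 for CDC25C, -1.28 for CDCA5 and -1.25 for UBE2C. Against untreated cells at day 10, the other probe of UBE2C went the other way, with -0.66 in HepG2 and -1.07 in SNU398. That of BIRC5 had -2.24 and -1.65. Those of CDC25C had -1.37 and -2.37 in HepG2 and, in the same order, -1.36 and -1.11 in SNU398. From day 10 to day 24, 14 differed between these lines, 11 higher and 3 lower, against 10.7% and 9.77% of all genes. Among them were CCNB2 with 0.97, ESPL1 with -0.88, ZWINT with 0.87 and CDC25C with 0.87. Over the same days 41 differed between HepG2 and SNU475, all rising more in HepG2, against 8.87% of all genes. The largest were 2.05 for ZWINT, 2.03 for BIRC5, 1.76 for NCAPG and 1.73 for MAD2L1. Between SNU398 and SNU475 42 differed, all rising more in SNU398, against 8.88% of all genes. The largest were 2.16 for HMMR, 1.75 for DLGAP5, 1.66 for NCAPG and 1.64 for BUB1B. The rises are log2 differences, and the fall before them had medians of -2.15 in HepG2, -1.32 in SNU398 and -0.94 in SNU475. The medians of SNU398 and SNU475 cross array sets. Without further normalization they were -1.21 and -1.24, with -2.19 in HepG2, so the order of SNU398 and SNU475 depends on the normalization.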

How the results depend on the processing

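The falls at day 10 against untreated cells kept their direction and stayed within 1.5 times of their counts under all alternatives tried, as did the rises from day 10 to 17 in HepG2 and from day 24 to 31 in SNU475. Counts of mitosis genes called moved as follows, and the cause was not tested. With each probe tested on its own, which raises the number of features, they were 7 in place of 4 in HepG2 at day 3, 29 in place of 19 at day 17 and 65 in place of 43 from day 3 to 10. In SNU398 they were 12 in place of 9 at day 24 (7 lower, 5 higher), 68 in place of 45 from day 10 to 17 and 5 in place of 2 from day 17 to 24, and in SNU475 19 in place of 11 at day 31 and 35 in place of 22 from day 31 to 56. With the mean of all kept probes they were 4 in place of 2 in SNU398 from day 17 to 24 and 9 in place of 14 between HepG2 and SNU398 from day 10 to 24, UBE2C in SNU398 at day 24 had 0.03 and BUB3 in HepG2 at day 10 -0.11. With the line fitted alone, on fewer arrays, they were 2 in HepG2 at day 3, 3 in place of 14 from day 17 to 24, 1 in SNU398 from day 17 to 24, 1 in place of 0 in SNU475 at day 3 and 6 in place of 10 from day 10 to 17. With no filter the last was also 6. SNU475 at day 3 also had 1 with no background correction and 1 with probes above background on all arrays. At day 31 SNU475 had 5 with median scaling and 5 with no further normalization, and at day 56 the latter gave 25 (17 lower, 8 higher). Cyclic loess gave 8 in SNU398 at day 24 (5 lower, 3 higher) and 21 in SNU475 from day 31 to 56 (9 lower, 12 higher). The share of higher among all genes called against untreated cells was 50.8 to 56.4% in SNU398 and 68.4 to 78.7% with median scaling. In SNU475 from day 10 on it was 46 to 59.1%, and 27.3 to 38.8% with median scaling and 8.57 to 24.1% with no further normalization.

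Over all genes, the counts that moved by over 1.5 times were these. SNU475 had 580 at day 3 and 367 with probes above background on all arrays. With no further normalization it had 5740 in place of 3150 at day 10, 5148 in place of 2242 at day 17, 5264 in place of 2160 at day 31 and 5104 in place of 2788 from day 3 to 10. From day 10 to 17 it had 206 in place of 91 with no background correction, and HepG2 had 673 in place of 1285 from day 17 to 24 with the line fitted alone.

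Leaving out each array in turn gave counts of mitosis genes from 1 to 4 in HepG2 at day 3, 12 to 15 at day 17 and 4 to 7 from day 17 to 24. In SNU398 they ran from 8 to 14 at day 17, 3 to 5 at day 24 and 0 to 1 from day 17 to 24. In SNU475 they ran from 24 to 28 at day 17, 4 to 9 at day 31, 15 to 22 at day 56, 2 to 7 from day 10 to 17, 5 to 6 from day 17 to 24 and 14 to 18 from day 31 to 56. Between HepG2 and SNU398 from day 10 to 24 they ran from 9 to 13. BUB3 in HepG2 at day 10 ran from -0.02 to 0.19. Over all genes the ranges were 1480 to 1842 in HepG2 at day 3 and 582 to 677 from day 17 to 24, 1797 to 2035 in SNU398 at day 24 and 756 to 908 from day 17 to 24. In SNU475 they were 311 to 361 at day 3, 2006 to 2246 at day 10, 1318 to 1444 at day 17, 1242 to 1421 at day 31, 1831 to 1899 from day 3 to 10, 25 to 57 from day 10 to 17 and 1006 to 1212 from day 17 to 24. With the replicate number as a block, 22 of 29 comparisons gave the same count of mitosis genes and the others at most 2 fewer. Deviations from the group means of samples that share a number had correlations of -0.14 to 0.17, over 0.1 in 1 of 10 pairs of groups in HepG2 and in 0 elsewhere, so the numbers were not taken to pair the samples.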
